A study of Mus musculus with 36 samples.

Results

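The 10 genes described here make and desaturate fatty acids: Scd1, Scd2, Fasn, Acaca, Acly, Elovl1, Elovl6, Srebf1, Me1 and Acss2. They were taken by symbol, with earlier results of these data known, and each matched 1 of the 49585 rows of the count table. All 10 passed the filter on low counts, which left 20009 genes for testing. The RNA came from EGFP+ tumour cells that were sorted from 36 lung tumours of mice, all driven by EML4-ALK, in which the kinase ALK is fused to EML4. The tumours carried EML4-ALK variant 3 or variant 1, which retain different lengths of EML4, and were edited with a guide against Setd2 (sgSetd2) or a control guide (sgNeo). SETD2 is the enzyme that places the trimethyl mark on H3K36. Each of the groups Variant 1 sgSetd2, Variant 1 sgNeo, Variant 3 sgSetd2 and Variant 3 sgNeo held 9 tumours, which carry 3 title codes with 3 tumours each. What a code stands for is not in the labels, and neither are strain, age, the delivery of the fusion or the promoter that drives it. Counts of a code were summed, so that n = 3 codes per group. The p-values below therefore reflect how codes vary, which may be partly technical. Levels are TMM-normalised CPM, that is, counts scaled to a common library total.

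Fatty acids are built from acetyl-CoA. ATP citrate lyase (Acly) and the cytosolic acetyl-CoA synthetase (Acss2) supply it, acetyl-CoA carboxylase (Acaca) turns it into malonyl-CoA, and fatty acid synthase (Fasn) joins the units into palmitate with NADPH that malic enzyme (Me1) helps to provide. Elovl6 lengthens palmitate, Elovl1 lengthens very long chains, and the stearoyl-CoA desaturases Scd1 and Scd2 add the first double bond. Srebf1 encodes SREBP1, the transcription factor that drives most of these genes. Alveolar type 2 (AT2) cells, the surfactant-secreting cells of the lung, use this pathway to supply the dipalmitoyl phosphatidylcholine of surfactant.

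The libraries were deep, with 17.9 M to 137.2 M counts per tumour and 91.5 M to 212.1 M per code. Setd2 itself averaged 37.4 ± 2.52 CPM in Variant 1 sgSetd2 codes and 67.7 ± 12.8 CPM in Variant 1 sgNeo codes (SD, n = 3 each; log2 fold change -0.86, adjusted p = 0.0825 in edgeR's quasi-likelihood test). In Variant 3 it averaged 45.7 ± 13.2 CPM in sgSetd2 codes and 54.6 ± 10.3 CPM in sgNeo codes (log2 fold change -0.26, adjusted p = 0.647), and the codes overlapped. A guide's insertions need not lower mRNA, so the level checks the labels only in part. The 10 AT2 markers summed to 36464 to 206170 CPM per tumour. Markers of adipocytes, a cell type rich in Scd1, summed to at most 0.933 CPM in any tumour, with Lep at 0 in 3 of the groups. The 8 fibroblast markers reached sums of 497.4 CPM in Variant 1 sgNeo tumours and 182.4 CPM in Variant 1 sgSetd2 tumours. In Variant 3 they reached 92.4 CPM in sgSetd2 and 40.0 CPM in sgNeo tumours. Tumour 1 of CE467 (Variant 1 sgNeo) had their highest mean log2(CPM + 1), at 4.44. Other markers moved with the guide averaged over variants. Of 6 club and ciliated cell markers 3 rose (median log2 fold change 1.88), with Cyp2f2 at 3.45 (adjusted p = 0.0004 in edgeR), and they summed to 52.9 to 856.4 CPM in sgSetd2 tumours and 13 to 212.7 CPM in sgNeo tumours. The neutrophil marker Cxcr2 rose by 2.41, with the list at most 24.6 CPM in sgSetd2 tumours and 4.21 CPM in sgNeo tumours. Of the AT2 markers, Lyz2 rose by 1.62 and Napsa fell by 1.29. The part of these markers in the results below was not tested. The means of 10 proliferation markers, on the log2(CPM + 1) scale, ran from 1.78 to 4.8 in sgSetd2 tumours and from 1.40 to 5.48 in sgNeo tumours. The tumours with means above 4 were 3 of 18 sgSetd2 and 7 of 18 sgNeo tumours. In Variant 1 they were all sgNeo tumours, as the highest mean was 3.23 in sgSetd2 and 5.48 in sgNeo. In Variant 3 both guides had tumours above 4, with highest means of 4.8 in sgSetd2 and 5.12 in sgNeo. The 7 sgNeo tumours stand apart in several of the genes below, while the 3 sgSetd2 tumours lie inside the range of the other 15 for each of the 10 genes. Results are given with and without these tumours, and the threshold was chosen after the values were seen.

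The genes lay at very different levels. Per kilobase of exon, the mean over the 12 codes was highest for Scd1 at 2870 CPM per kb. Elovl1 followed at 684, Me1 at 256, Scd2 at 215, Fasn at 146 and Acly at 131 CPM per kb. Srebf1 lay lower, at 27.3 CPM per kb, as transcription factors commonly do. Acaca stood at 4.42 CPM per kb, Acss2 at 1.37 and Elovl6 at 0.172. Elovl6 was thus close to undetected, with a count of 0 in 14 of 36 tumours, while Scd1 had the highest level of the set. Across the 12 codes, Pearson correlations between the 9 genes other than Elovl6 had a median of 0.61 over 36 pairs and ran from 0.03 to 0.94; these points share library depth and group, and the values are a description.

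**Figure D1:**
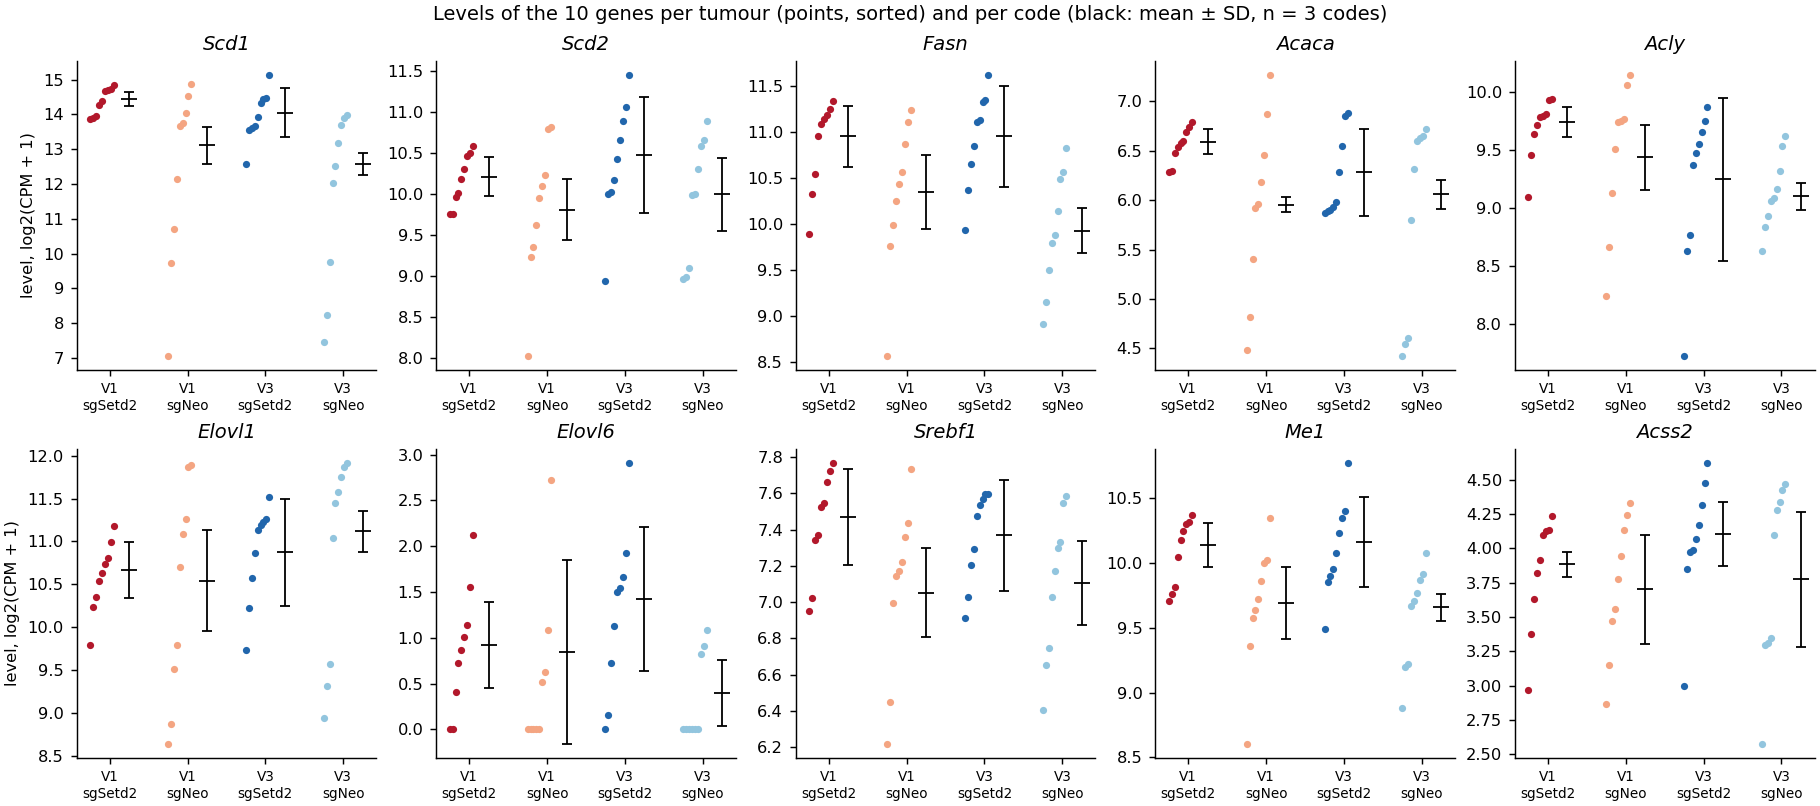
Levels of the 10 genes as log2(CPM + 1) in each of the 36 tumours, by group (points, sorted within a group), with the mean ± SD over the 3 codes of the group beside them in black. Scd1 spread from 133 to 29978 CPM among Variant 1 sgNeo tumours and from 15005 to 29299 CPM among Variant 1 sgSetd2 tumours.

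The comparison of sgSetd2 with sgNeo asks how tumours that received the Setd2 guide differ from those with the control guide. Averaged over both variants, Scd1 and Fasn rose in sgSetd2 tumours, Scd1 by 1.42 on the log2 scale (SE 0.25, 2.67-fold, adjusted p = 0.00732) and Fasn by 0.83 (SE 0.20, 1.78-fold, adjusted p = 0.0323; edgeR's quasi-likelihood test, Benjamini-Hochberg adjusted over 20009 genes). These 2 of 10 stand beside 7.35% of all genes called in either direction and 3.72% called higher. At an unadjusted p of 0.05 the count was 5 of 10, beside 22.9% of all genes. The median log2 fold change of the 10 genes was 0.46, beside 0.01 over all genes tested, and 9 of the 10 estimates were above 0. Me1 (0.48, SE 0.14, adjusted p = 0.0582) and Acaca (0.46, SE 0.14, adjusted p = 0.064) lay just outside the threshold. DESeq2 on the same sums called 4, adding Acaca and Me1.

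Within a variant, the main edgeR fit called 0 of the 10 genes. In Variant 1, 3 of the 10 had an unadjusted p under 0.05, beside 15.9% of all genes, and 1.42% of all genes were called after adjustment. In Variant 3 the count was again 3 of the 10, beside 15.1% of all genes, with 1.49% called after adjustment. DESeq2 called 2 in each variant (Scd1 and Acaca in Variant 1, Scd1 and Fasn in Variant 3), and both limma fits called 0 in each. Most genes shared a direction: 9 of 10 estimates were above 0 in each variant, with medians of 0.40 in Variant 1 and 0.41 in Variant 3. The gene below 0 was Elovl6 in Variant 1 (-0.24) and Elovl1 in Variant 3 (-0.18). The sgSetd2 codes all lay above the sgNeo codes for 3 of 10 genes in Variant 1 (Scd1, Acaca and Me1), beside 11.7% of all genes. In Variant 3 this held for 4 of 10 (Scd1, Fasn, Elovl6 and Me1), beside 10% of all genes. Bulk values cannot tell fewer expressing cells from less RNA per cell.

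**Figure D2:**
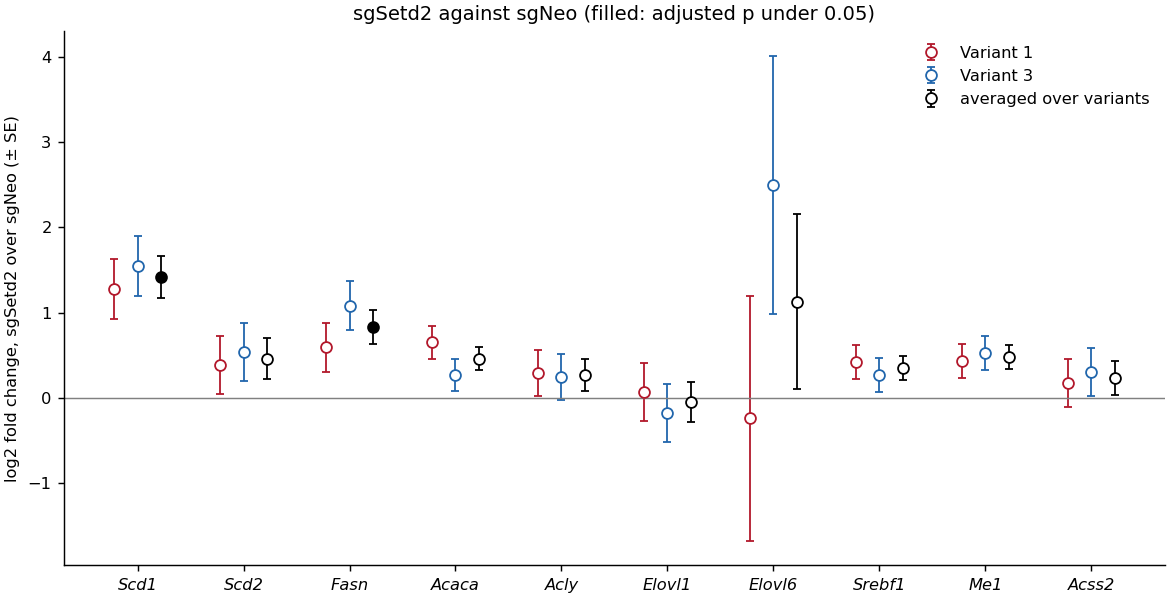
Log2 fold changes of the 10 genes, sgSetd2 over sgNeo, with their SE, in Variant 1 (red), in Variant 3 (blue) and averaged over variants (black). Only the averaged values of Scd1 (1.42) and Fasn (0.83) are filled, which marks an adjusted p under 0.05, and Elovl6 has the widest errors.

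Scd1 (ENSMUSG00000037071.2, GRCm38 chromosome 19, 44394455 to 44407879, minus strand) moved furthest among the genes with a called change. The Variant 1 sgSetd2 codes held 19736, 21452 and 26152 CPM of Scd1, and the Variant 1 sgNeo codes 5785, 10726 and 11173 CPM. The Variant 3 sgSetd2 codes held 10325, 17289 and 27257 CPM, and the Variant 3 sgNeo codes 4950, 6101 and 7690 CPM. In each variant the lowest sgSetd2 code lay above the highest sgNeo code. The log2 fold changes were 1.28 in Variant 1 (SE 0.35, adjusted p = 0.0982) and 1.55 in Variant 3 (SE 0.35, adjusted p = 0.0571, both edgeR). CE456 had the least Scd1 of the 6 sgSetd2 codes and the most Setd2 mRNA, 59.8 CPM; the part of Setd2 mRNA was not tested. Leaving out 1 code or tumour gave Variant 3 differences of Scd1 from 1.09 to 1.94, with adjusted p-values up to 0.281 in edgeR.

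The tumours behind those codes differed far more under sgNeo than under sgSetd2. Scd1 ran from 15005 through a median of 21490 to 29299 CPM in Variant 1 sgSetd2 tumours, and from 133 through 12897 to 29978 CPM in Variant 1 sgNeo tumours. It ran from 6122 through 15571 to 35869 CPM in Variant 3 sgSetd2 tumours, and from 174 through 5841 to 16259 CPM in Variant 3 sgNeo tumours. The highest tumour of a group was 1.95 times the lowest in Variant 1 sgSetd2 and 226 times in Variant 1 sgNeo. In Variant 3 these ratios were 5.86 in sgSetd2 and 93.4 in sgNeo. Of the 18 sgNeo tumours, 9 lay below the lowest sgSetd2 tumour and none above the highest. The SD of log2(CPM + 1) over tumours was 0.39 in Variant 1 sgSetd2 and 2.62 in Variant 1 sgNeo, where the median gene of at least 5 CPM had 0.27 and 0.39. In Variant 3 it was 0.73 in sgSetd2 and 2.52 in sgNeo, against gene medians of 0.32 and 0.37. In each sgNeo group, 99.8% of the 10214 genes had a smaller SD than Scd1. The spread lay within codes. The 3 tumours of CE472 (Variant 1 sgNeo) held 133, 16825 and 23582 CPM, and those of CE428 (Variant 3 sgNeo) 174, 5841 and 15390 CPM. Among the sgSetd2 codes the highest and lowest tumours were at most 1.03 apart on the log2 scale, in CE456 (6122 to 12494 CPM).

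Scd1 was low in the sgNeo tumours that were high in proliferation markers. The 7 sgNeo tumours with proliferation means above 4 held 133 to 4546 CPM of Scd1, with a median of 854, and the other 11 held 4209 to 29978 CPM, with a median of 13798. The 3 sgSetd2 tumours above 4 held 12494 to 22138 CPM, inside the range of the other 15 (6122 to 35869 CPM). AT2 marker means were 9.76 to 11.85 in those 7 sgNeo tumours and 11.50 to 12.64 in the other 11, and 11.44 to 11.83 in the 3 sgSetd2 tumours above 4. The part of these markers in the difference was not tested. Leaving out all 10 tumours above 4 gave log2 fold changes of 0.78 for Scd1 (adjusted p = 0.163) and 0.55 for Fasn (adjusted p = 0.198), averaged over variants in edgeR, and 0 of the 10 genes were called. In Variant 1, where every tumour left out was sgNeo, the Scd1 difference was 0.31 without them and 1.28 with them. In Variant 3, where tumours of both guides were left out, it was 1.24 without and 1.55 with them. Leaving out only tumour 1 of CE467, tumour 4 of CE468 and tumour 2 of CE472, 3 Variant 1 sgNeo tumours with AT2 means of 9.76, 10.42 and 11.14, gave 1.03 for Scd1 (adjusted p = 0.0684) and 0.68 for Fasn (adjusted p = 0.0819). With the proliferation mean of each code as a covariate, Scd1 kept its call at 1.38 (adjusted p = 0.0262) and Fasn stood at 0.74 (adjusted p = 0.103).

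**Figure D3:**
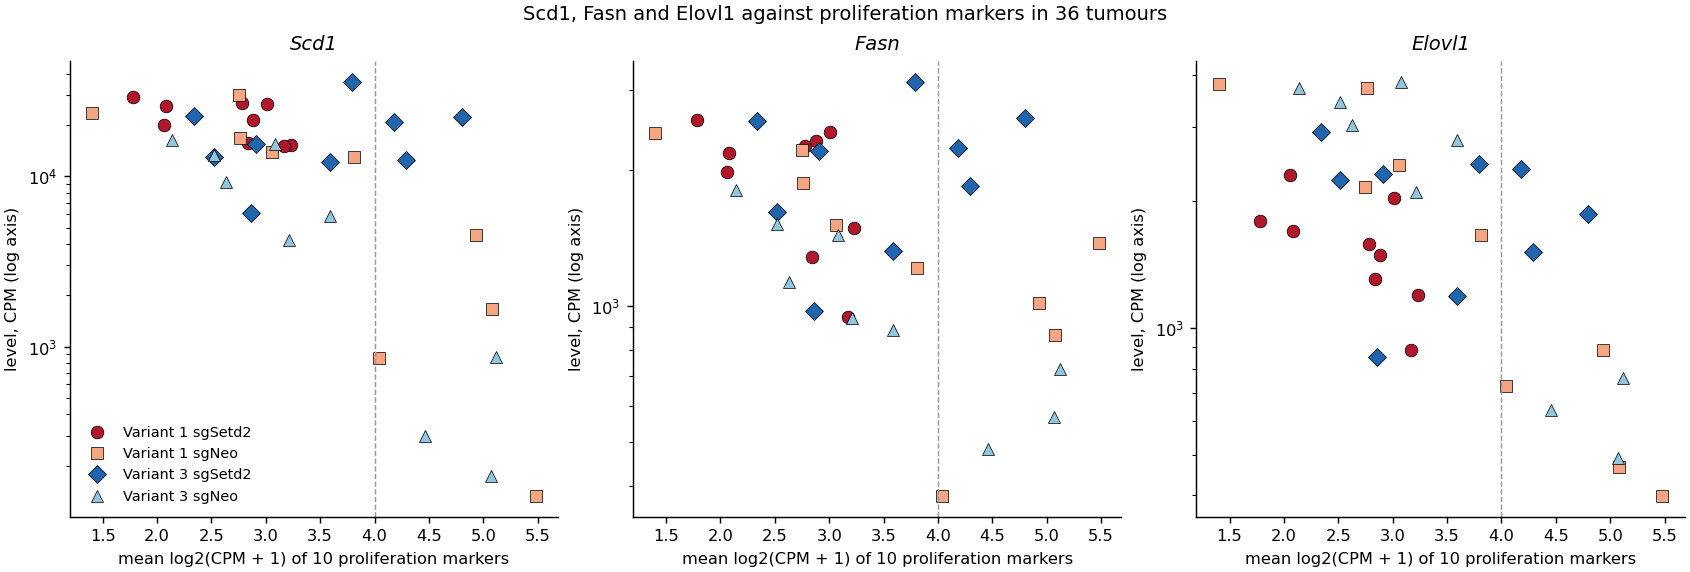
Levels of Scd1, Fasn and Elovl1 in CPM (log axis) against the mean log2(CPM + 1) of 10 proliferation markers in each of the 36 tumours, coloured by group, with a dashed line at 4. Right of the line, the 7 sgNeo tumours hold 133 to 4546 CPM of Scd1 and the 3 sgSetd2 tumours 12494 to 22138 CPM.

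Scd2 (ENSMUSG00000025203.5, chromosome 19, 44293674 to 44306864, plus strand) is the neighbouring desaturase gene and showed a smaller difference. It averaged 1192 ± 199 CPM in Variant 1 sgSetd2 codes and 915 ± 222 CPM in Variant 1 sgNeo codes (SD, n = 3 each). In Variant 3 it averaged 1535 ± 738 CPM in sgSetd2 codes and 1054 ± 334 CPM in sgNeo codes. The codes overlapped in both variants, and the averaged log2 fold change of 0.46 (SE 0.24) did not pass (adjusted p = 0.277 in edgeR). The other genes of the cluster, Scd3 and Scd4, averaged at most 1.30 and 0.756 CPM in any group. Scd1 and Scd2 are alike in sequence, with 89.6% identity over their coding bases, and how reads matching both were counted is not given in the sources used here. The longest stretch they share exactly is 147 bases, and 1.01% of the 100-base stretches of Scd1's transcript also occur in Scd2, but none of its 150-base stretches, the length of a read. Scd1 and Scd3 share 36 stretches of 150 bases. The window is shown because it holds the longest exact match of Scd1 and Scd2. The coding bases 493 to 699 of Scd1 and 502 to 708 of Scd2 (GENCODE release M21, GRCm38) run as follows, with the 2 mismatched bases that bound the shared stretch in capitals.
Scd1: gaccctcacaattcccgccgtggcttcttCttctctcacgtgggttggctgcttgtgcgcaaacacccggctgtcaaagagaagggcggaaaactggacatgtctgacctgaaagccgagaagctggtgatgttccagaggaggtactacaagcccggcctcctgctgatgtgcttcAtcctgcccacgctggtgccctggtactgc
Scd2: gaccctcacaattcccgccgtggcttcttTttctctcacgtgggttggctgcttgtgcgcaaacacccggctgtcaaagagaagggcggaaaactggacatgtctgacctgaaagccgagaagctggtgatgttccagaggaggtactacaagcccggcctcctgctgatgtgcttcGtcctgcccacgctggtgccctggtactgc

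The balance between these desaturases also differed with the guide. Scd1 counts per Scd2 count were 15.3, 17.0 and 25.9 in Variant 1 sgSetd2 codes, and 8.66, 9.77 and 11.4 in Variant 1 sgNeo codes. They were 11.7, 11.9 and 12.3 in Variant 3 sgSetd2 codes, and 5.40, 6.34 and 6.38 in Variant 3 sgNeo codes. The guides did not overlap in either variant. The difference of log2 ratios was 0.93 in Variant 1, 0.99 in Variant 3 and 0.96 averaged over variants (1.95-fold). An exact two-sided permutation of codes within variants gave p = 0.005 for the average, the smallest of 400 arrangements; within a variant 3 against 3 codes cannot go below p = 0.1, the exact value found in each. Between variants, the Variant 3 ratio was 0.609 times that of Variant 1 in sgNeo and 0.634 times in sgSetd2, again without overlap and at the smallest exact p of 0.1. Among single tumours the ratio ran from 10.4 to 29.4 under sgSetd2 and from 0.169 to 16.6 under sgNeo, where 3 tumours had fewer Scd1 than Scd2 counts. Without the 10 tumours high in proliferation markers the averaged difference was 0.60 (exact permutation p = 0.01).

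**Figure D4:**
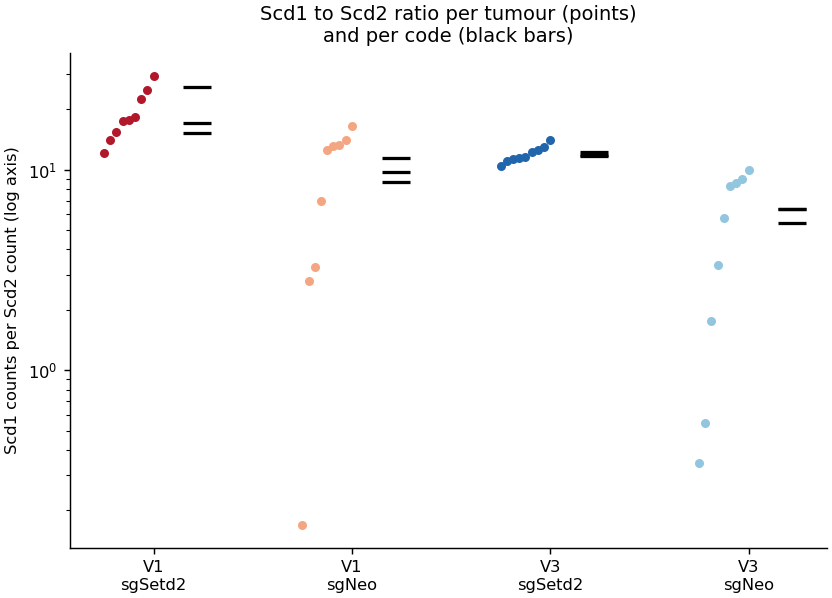
Scd1 counts per Scd2 count (log axis) in each tumour (points, sorted within a group) and in the summed counts of each code (black bars). The sgSetd2 codes lie above the sgNeo codes in both variants, and 3 sgNeo tumours lie below a ratio of 1.

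Fasn (ENSMUSG00000025153.9, chromosome 11, 120805846 to 120824547, minus strand) followed Scd1 at a lower level. The Variant 1 sgSetd2 codes held 1544, 2053 and 2431 CPM, and the Variant 1 sgNeo codes 997, 1267 and 1742 CPM, so that the groups overlapped. The Variant 3 sgSetd2 codes held 1300, 2200 and 2714 CPM, and the Variant 3 sgNeo codes 862, 908 and 1178 CPM, without overlap. The log2 fold change was 0.59 in Variant 1 (SE 0.29, adjusted p = 0.348) and 1.08 in Variant 3 (SE 0.29, adjusted p = 0.0991, edgeR), and the difference between variants did not pass (interaction 0.49, SE 0.40, adjusted p = 0.924). Of 18 sgNeo tumours, 7 lay below the lowest sgSetd2 tumour at 947 CPM. The averaged call was lost without any 1 of 8 of the 12 codes (CE428, CE433, CE450, CE454, CE467, CE468, CE475 or CE483), with log2 fold changes of 0.71 to 0.82 and adjusted p-values of 0.0641 to 0.0865. It was also lost without tumour 1 of CE467, tumour 1 of CE479, tumour 2 of CE429 or tumour 2 of CE472 (0.73 to 0.79, adjusted p up to 0.0944). The Scd1 call was lost on leaving out tumour 3 of CE433, where the fold change was larger (1.61, adjusted p = 0.0748), and in no fit without a code.

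Promoter windows were read for the members in the RefSeq promoter table (GRCm38.p6, 250 bases before to 50 after the start), which held 12 windows for 8 of the 10 genes and none for Scd1 or Scd2. The letters searched, on both strands, were CCAAT, the binding box of NF-Y, GGGCGG, the GC box of Sp1, CACGTG, an E-box, and TCACNCCAC, an SREBP motif. NF-Y and Sp1 are known partners of SREBP1 at lipogenic promoters. CCAAT was in 7 of 12 windows, against 37.4% of 32851 mouse promoters, and GGGCGG in 7 of 12, against 35.7%. Neither CACGTG (7.15% of promoters) nor TCACNCCAC (1.24%) was in any of the 12. The Fasn and Elovl1 windows are shown because one gene rose and the other did not. Fasn holds 3 CCAAT matches, beginning at -90, -62 and -59 from the start, of which the last pair overlap each other, and no GC box. Elovl1 has 2 windows in the table: the first, shown here, holds 5 GC boxes and 1 CCAAT, which overlaps a GC box, and the second holds 2 GC boxes and no CCAAT. Capitals mark CCAAT and GGGCGG matches on either strand.
Fasn, chr11:120824498-120824797, minus strand: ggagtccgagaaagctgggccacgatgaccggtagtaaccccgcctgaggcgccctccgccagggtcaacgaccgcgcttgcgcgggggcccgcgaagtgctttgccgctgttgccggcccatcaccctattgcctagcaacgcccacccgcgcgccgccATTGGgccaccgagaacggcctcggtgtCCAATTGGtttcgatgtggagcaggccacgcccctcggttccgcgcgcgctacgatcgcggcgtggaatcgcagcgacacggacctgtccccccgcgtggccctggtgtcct
Elovl1, chr4:118427843-118428142, plus strand: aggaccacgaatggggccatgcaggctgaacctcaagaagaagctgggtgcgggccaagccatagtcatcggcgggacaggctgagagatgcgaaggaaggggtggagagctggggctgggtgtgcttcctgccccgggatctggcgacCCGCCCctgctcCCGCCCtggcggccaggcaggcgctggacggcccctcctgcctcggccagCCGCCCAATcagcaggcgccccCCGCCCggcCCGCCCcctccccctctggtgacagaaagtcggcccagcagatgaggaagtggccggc

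Of the genes that supply substrate and reducing power, the main edgeR fit called none in any comparison. DESeq2 called Acaca and Me1 averaged over variants and Acaca in Variant 1. Other edgeR settings called some as well. With a filter of a mean of at least 1 CPM in a group, edgeR's averaged adjusted p was 0.0428 for Acaca and 0.036 for Me1. Acaca, the rate-limiting carboxylase, held 90.6, 91.0 and 106 CPM in Variant 1 sgSetd2 codes and 59.0, 59.4 and 64.9 CPM in Variant 1 sgNeo codes. These groups lay wide apart for their spread (log2 fold change 0.65, SE 0.19, adjusted p = 0.125 in edgeR). In Variant 3 the sgSetd2 codes held 61.0, 67.8 and 109 CPM of Acaca and the sgNeo codes 59.3, 65.8 and 72.7 CPM, with CE450 alone standing high. Acaca, too, was lowest in the sgNeo tumours with high proliferation markers, at 20.5 to 59.5 CPM in those 7 and 54.5 to 153 CPM in the other 11. Without the 10 tumours high in these markers the averaged difference of Acaca was -0.02.

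Me1 averaged 1127 ± 136 CPM in Variant 1 sgSetd2 codes and 835 ± 167 CPM in Variant 1 sgNeo codes (SD, n = 3 each; log2 fold change 0.43, adjusted p = 0.309 in edgeR). In Variant 3 it averaged 1165 ± 294 CPM in sgSetd2 codes and 807 ± 57.6 CPM in sgNeo codes (log2 fold change 0.53, adjusted p = 0.227). The guides did not overlap in either variant, and the averaged difference passed in 10 of 64 fits, against 6 of 64 for Acaca. Acly averaged 859 ± 77.0 CPM in Variant 1 sgSetd2 codes and 702 ± 135 CPM in Variant 1 sgNeo codes. In Variant 3 the averages were 652 ± 266 CPM in sgSetd2 codes and 551 ± 44.1 CPM in sgNeo codes, and CE456, at 347 CPM, was the lowest of all 12. Its averaged log2 fold change was 0.27 (SE 0.19, adjusted p = 0.453). Acss2, which makes acetyl-CoA from acetate, was low throughout, at 8.59 to 19.3 CPM per code, and its groups overlapped (averaged log2 fold change 0.23, SE 0.20, adjusted p = 0.539).

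Of the elongases, Elovl1 did not differ beyond its spread and Elovl6 was too low to place. Elovl1 averaged 1654 ± 357 CPM in Variant 1 sgSetd2 codes and 1579 ± 697 CPM in Variant 1 sgNeo codes (SD, n = 3 each). In Variant 3 it averaged 1985 ± 740 CPM in sgSetd2 codes and 2243 ± 366 CPM in sgNeo codes. The averaged log2 fold change was -0.05 (SE 0.24, adjusted p = 0.929 in edgeR), and the 10 genes' other 9 estimates were all above it. Single tumours, however, spread to both sides: of 18 sgNeo tumours, 6 lay below the lowest sgSetd2 tumour (853 CPM) and 6 above the highest (2929 CPM). The 7 sgNeo tumours high in proliferation markers held 399 to 889 CPM of Elovl1 and the other 11 held 1661 to 3852 CPM. Elovl6 was near its detection limit, with 315, 351, 1090 and 146 counts in all in Variant 1 sgSetd2, Variant 1 sgNeo, Variant 3 sgSetd2 and Variant 3 sgNeo tumours. In Variant 3 the sgSetd2 codes held 0.659, 1.41 and 3.84 CPM and the sgNeo codes 0, 0.413 and 0.630 CPM (log2 fold change 2.5, SE 1.52, adjusted p = 0.48), and averaged over variants the difference was 1.13 (SE 1.03, adjusted p = 0.575). The sign of its Variant 1 difference (-0.24, SE 1.44) turned with the setting.

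Srebf1, the regulator, showed a modest difference. It averaged 178 ± 33.0 CPM in Variant 1 sgSetd2 codes and 133 ± 22.5 CPM in Variant 1 sgNeo codes, and 167 ± 33.1 CPM in Variant 3 sgSetd2 codes and 138 ± 22.6 CPM in Variant 3 sgNeo codes (SD, n = 3 each). The groups overlapped, and the averaged log2 fold change of 0.35 (SE 0.14) did not pass (adjusted p = 0.163 in edgeR). Its level across the 12 codes was set against each of the other 9 genes, on log2-CPM. Correlations passed at an adjusted p of 0.05 over these 9 relations for 6 of them. The share of all genes that would pass was not counted, and genes outside the set reached higher r, such as Pi4ka at 0.932. Of the 9 genes, Fasn had the highest Pearson correlation, r = 0.79 (permutation p = 0.00306, adjusted 0.0231), with Spearman rho = 0.76 (permutation p = 0.00622, adjusted 0.0187). Scd2 followed at r = 0.72, rho = 0.76, Me1 at 0.71 and 0.77, Acss2 at 0.70 and 0.65, Scd1 at 0.70 and 0.66, and Acly at 0.64 and 0.72. Leaving out CE475 and CE467, the 2 codes farthest from the median of Srebf1, gave r = 0.88 for Fasn and 0.79 for Scd1, and the same 6 passed. With each group's mean taken out, r was 0.75 for Fasn (adjusted permutation p = 0.0201) and 0.50 for Scd1 (adjusted permutation p = 0.138). Then 5 passed, of which 4 were among the 6 (Fasn, Scd2, Acly and Acss2) and the fifth was Elovl1, with r = 0.89 (adjusted permutation p = 0.00144) against 0.57 before. The p-values treat the 12 codes as exchangeable. Values with the group mean taken out sum to 0 within each group and are not free to vary over 12 codes. The p-values after that step are therefore too small, and the 5 that passed there are a description.

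Among genes outside the set with at least 5 CPM on average, 9879 were ranked by the Pearson correlation of their log2-CPM with Scd1, Fasn and Srebf1 over the 12 codes. Closest to Scd1 were Il13ra1 (0.964), Cdcp1 (0.963), Ctsc (0.950), Tpp1 (0.944) and Ap3d1 (0.941). Fasn itself correlated with Scd1 at 0.943 and Me1 at 0.881, while Elovl1 stood at 0.084. Closest to Fasn were Dock1 (0.964), Cpne3 (0.955), Kidins220 (0.948), Washc5 (0.943) and Iqgap1 (0.943). Close to Srebf1 were Pi4ka (0.932), Pon2 (0.929), Rgmb (0.925) and Nfe2l1 (0.923). The 12 codes share 4 groups, and these values are a description.

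Other genes of lipid metabolism were read from lists. Of 24 further genes of fatty acid synthesis, elongation and desaturation that were tested, 2 rose and 2 fell in sgSetd2 tumours averaged over variants, beside 7.35% of all genes called in either direction (median log2 fold change 0.24, beside 0.01 over all genes). Mid1ip1, which activates acetyl-CoA carboxylase, rose by 0.83 (SE 0.16, adjusted p = 0.0116 in edgeR), at 301 ± 68.1 CPM in Variant 1 sgSetd2 codes and 185 ± 34.7 CPM in Variant 1 sgNeo codes. Degs1, a dihydroceramide desaturase, rose by 0.65 (adjusted p = 0.0194). Hacd1, an acyl-CoA dehydratase, fell by 0.65 (adjusted p = 0.0177). Mecr, a mitochondrial enoyl reductase, fell by 0.45 (adjusted p = 0.0242) and, ranked after these, was named after its value was seen. Of 17 regulators around SREBP, LXR and ChREBP, 2 rose and 0 fell: Mlx, the partner of ChREBP (0.47, adjusted p = 0.0334), and Insig1, a sterol-responsive brake on SREBP processing (0.71, adjusted p = 0.037). The list's median was 0.04, and 0 of 17 were called by edgeR without the 3 named Variant 1 sgNeo tumours, without the 10 high in proliferation markers or with these markers as a covariate.

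Of 17 genes of citrate and NADPH supply (median -0.30), edgeR called 1, near the share over all genes: Mthfd1, which fell by 0.42 (adjusted p = 0.0325) and was not called with proliferation markers as a covariate. This list still had 1 gene lower without the 3 named tumours and without the 10 high in proliferation markers. Of 33 genes that use acyl-CoA for glycerolipids and phosphatidylcholine, 2 rose and 2 fell (median 0.09), beside 7.35% of all genes called. Gpam, the mitochondrial glycerol-3-phosphate acyltransferase and a known SREBP1 target, averaged 57.3 ± 22.5 CPM in Variant 1 sgSetd2 codes and 12 ± 1.65 CPM in Variant 1 sgNeo codes (log2 fold change 2.25, SE 0.34, adjusted p = 0.0152). In Variant 3 Gpam was at 7.30 ± 2.20 CPM in sgSetd2 codes and 5.60 ± 1.84 CPM in sgNeo codes. Cept1, which makes phosphatidylcholine, rose by 0.63 (adjusted p = 0.00201), while Acsl3 fell by 0.73 (adjusted p = 0.0252) and Gpat4, named after its value was seen, by 0.42 (adjusted p = 0.034). The list's falls numbered 1 without the 3 named tumours and 0 without the 10 or with the covariate, and the last pair of settings also lost the Gpam call in Variant 1. Of 31 genes of fatty acid uptake, storage and oxidation, 1 rose and 3 fell (median 0.11), beside the same 7.35% of all genes. Pparg, the regulator of fat storage, fell by 2.14 (adjusted p = 0.00343), Fabp5, a fatty acid carrier, by 1.29 (adjusted p = 0.0433), and Acads, named after its value was seen, by 0.45 (adjusted p = 0.0465). Lipe, the hormone-sensitive lipase, rose by 0.65 (adjusted p = 0.0117). The list had 0 higher and 1 lower without the 3 named tumours, and 1 each way without the 10 or with the covariate.

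The cholesterol genes driven by SREBP2 showed the most calls of these lists, with 9 of 21 higher and 0 lower averaged over variants (median 0.58). Over all genes, 3.72% were called higher. Sqle, the squalene epoxidase, rose by 1.09 (adjusted p = 0.000954 in edgeR), Msmo1 by 0.94 (adjusted p = 0.000954) and Idi1 by 0.87 (adjusted p = 0.00239). In Variant 3, 7 of 21 passed (median 0.85), and in Variant 1 only Msmo1 did (0.71, adjusted p = 0.0388; median 0.38). Of all genes, 1.49% were called in Variant 3 and 1.42% in Variant 1. Without the 10 tumours high in proliferation markers the count of the SREBP2 list was 3 of 21 with a median of 0.50, and that of the 24 further fatty acid genes was 0. In that setting 422 of all genes were called, against 1471 with all tumours. On leaving out the 3 named Variant 1 sgNeo tumours, 8 of the 21 rose, and of the 24 fatty acid genes 1 rose and 1 fell. Of all genes 863 were then called. With proliferation markers as a covariate the counts of the lists were 6 of 21 and 0 of 24, with 658 of all genes called. Of the 10 proliferation markers themselves, 4 fell in sgSetd2 tumours averaged over variants (median -1.14) and 0 rose. The share of all genes called in either direction was 7.35%. By variant, 4 of these markers fell in Variant 1 (median -2.02). In Variant 3, 0 fell (median -0.32), and 3 of the 10 estimates were above 0.

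**Figure D5:**
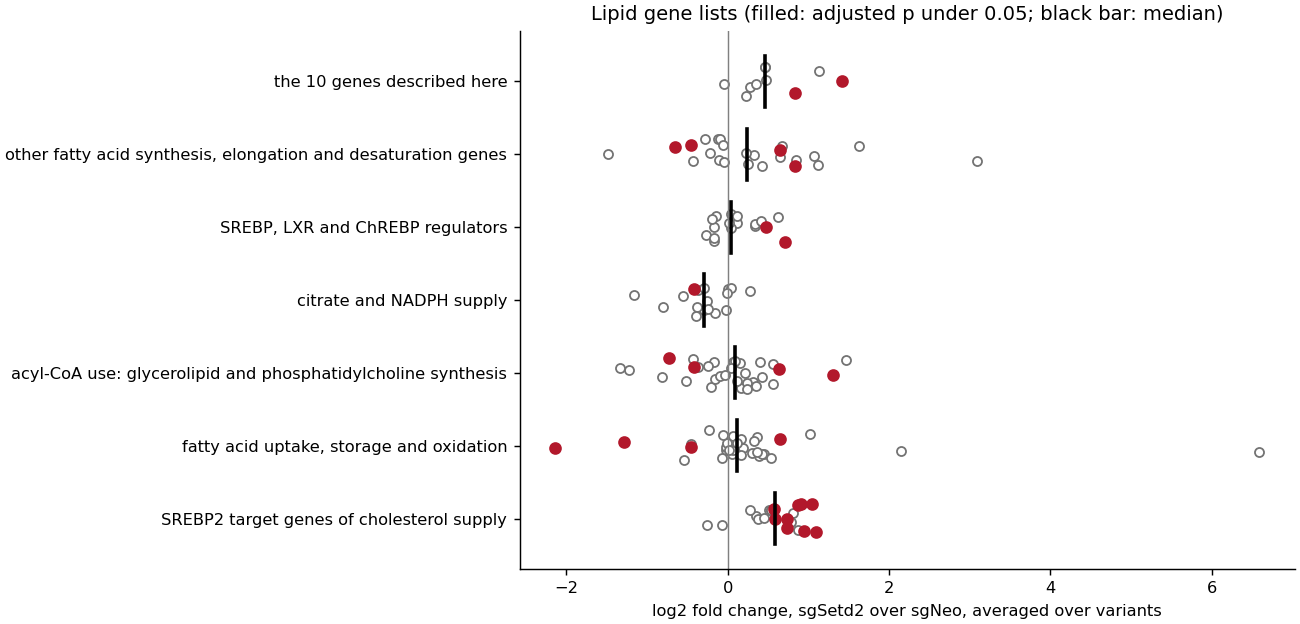
Log2 fold changes averaged over variants, sgSetd2 over sgNeo, for the genes of each lipid list that were tested (circles; filled where the adjusted p was under 0.05), with the list's median as a black bar. The SREBP2 list has 9 filled circles of 21, all above 0, and the list of citrate and NADPH supply has its median at -0.30.

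None of the 10 genes passed between the variants. Under sgNeo, Variant 3 differed from Variant 1 by -1.71 (Elovl6) to 0.51 (Elovl1) on the log2 scale, with a median of 0.00 and a smallest adjusted p of 0.611. Under sgSetd2 the range was -0.40 (Acly) to 1.03 (Elovl6), with a median of 0.05 and a smallest adjusted p of 0.663. In both, 0 of 10 passed in edgeR, in DESeq2 and in either limma fit, and 0 had an unadjusted p under 0.05. Over all genes, 0.00500% were called under sgNeo and 0.130% under sgSetd2, and 10.4% and 9.70% had an unadjusted p under 0.05. The codes of the variants overlapped for each of the 10 genes under either guide, while 15.0% of all genes under sgNeo and 16.7% under sgSetd2 did not overlap in one direction or the other. The interaction of guide and variant was called for 0 of 10 genes (smallest adjusted p = 0.896) and for 0% of all genes in edgeR, with 6.00% of all genes and 0 of the 10 at an unadjusted p under 0.05. DESeq2 called 114 genes for the interaction, limma 2 with voom and 0 on the mean log2-CPM per code, and none of the 10 in any. A p that misses the threshold does not show that the guides act alike in the variants: the interaction of Scd1 was 0.27 with an SE of 0.49.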

How the data were processed

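Values are raw counts per gene, deposited by the authors for 36 tumours. Per the labels' protocols, RNA came from a PicoPure kit and libraries from a SMART-Seq mRNA kit, read in pairs of 150 bases. STAR 2.5.3a, R 4.2 and DESeq2 1.38.3 are named, per the submitters' processing notes. The build, the read counter and its strand setting are not given by the sources used here. Symbols, coordinates and exon lengths come from GENCODE mouse release M21 (GRCm38), which matched 49326 of 49585 IDs, and may not be those of the authors' build. No 2 libraries were identical.

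Counts were summed per code and fitted with edgeR 4.0.16 in R 4.3.3 (filterByExpr, TMM, robust quasi-likelihood test, Benjamini-Hochberg at 0.05). All 12 codes shared 1 fit, and SE is the absolute log2 fold change over the square root of F. The fit was tested on simulated data. Alternatives used DESeq2 1.42.0, limma 3.58.1, other scalings and filters, covariates, and fewer tumours or codes. The Srebf1 relations used 100000 permutations. The labels give no batch. Male codes (Ddx3y above 50 CPM) were 1, 0, 1 and 2 in Variant 1 sgSetd2, Variant 1 sgNeo, Variant 3 sgSetd2 and Variant 3 sgNeo.

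All 10 members are named, with up to 3 passing genes per further list by smallest p, and the 5 most correlated genes for Scd1, Fasn and Srebf1. For Srebf1, 1 of those 5 is not reported here. The members and lists were chosen with earlier results of these data known.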

Additional observations from a re-analysis of the deposited data

Results flagged for a closer look

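In 40 groups of 9 tumours (10 genes in 4 groups), 2 held a tumour far from the rest, by Dixon's test at its 95% critical value. Chance flags about 1 in 20 groups. Both were Elovl6. Tumour 1 of CE467 (Variant 1 sgNeo) held 5.62 CPM, and the other 8 held 0 to 1.13 CPM. Tumour 4 of CE454 (Variant 3 sgSetd2) held 6.50 CPM, and the other 8 held 0 to 2.79 CPM.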

How the results depend on the processing

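The count of the 10 genes called moved as follows. Averaged over variants it was 2. It was 4 with DESeq2 and with a filter of a mean of at least 1 CPM in a group. With upper-quartile scaling it was 3, as with limma voom on tumours with code as a random block. It was 1 with limma on mean log2-CPM per code and with proliferation markers as a covariate. Without the 3 named Variant 1 sgNeo tumours it was 0, as without the 10 tumours above 4 in proliferation markers. In Variant 1 it was 0, and 2 with DESeq2. In Variant 3 it was 0, and 1 with upper-quartile scaling, with no filter, with the 1 CPM filter and with edgeR on the 36 tumours, and 2 with DESeq2 and with AT2 markers as a covariate. Leaving out each code or tumour in turn gave 1 to 4 averaged over variants, 0 to 1 in Variant 1 and 0 to 2 in Variant 3. The same gave 728 to 1681 of all genes averaged over variants, 16 to 495 in Variant 1 and 78 to 321 in Variant 3. Among the averaged fits, Scd1 lost its call in 1 of 48 that left something out and in 3 of 15 others, and Fasn in 12 of 48 and 4 of 15. For Scd1 the 3 were the fits without the 3 named tumours, without the 10 tumours, and edgeR on the 36 tumours. The last gave 1.1 for Scd1 (adjusted p = 0.108), and its count stayed at 2 because Me1 passed (adjusted p = 0.0139).

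Signs turned for genes without a call, and the cause was not tested. Without the 10 tumours above 4 in proliferation markers, the Variant 1 differences were -0.11 for Scd2, -0.13 for Acly, -0.74 for Elovl1, 3.34 for Elovl6 and -0.18 for Acss2, and Acaca was at -0.1 in Variant 3 and -0.02 averaged. Without the 3 named tumours they were -0.01 for Acly, -0.52 for Elovl1, 3.47 for Elovl6 and -0.08 for Acss2. With AT2 markers as a covariate they were -0.11 for Acly, -0.41 for Elovl1, 1.24 for Elovl6 and -0.1 for Acss2. With proliferation markers as a covariate they were -0.25 for Elovl1, 0.92 for Elovl6 and -0.14 for Acss2. Without tumours with Col1a1 above 10 CPM they were -0.19 for Elovl1 and 2.76 for Elovl6, and with edgeR on the 36 tumours -0.19 and 0.26. Elovl1 was at -0.03 with sex as a covariate. limma gave 2.26 (voom) and 1.54 (mean log2-CPM) for Elovl6 in Variant 1, 0.03 in both for Elovl1 in Variant 3, and 0.09 and 0.11 for Elovl1 averaged. Leaving out 1 code or tumour gave -0.32 to 0.53 for Elovl1, -0.85 to 2.24 for Elovl6 and -0.03 to 0.35 for Acss2 in Variant 1. It gave -0.03 to 0.57 for Acaca and -0.39 to 0.11 for Elovl1 in Variant 3, and -0.25 to 0.18 for Elovl1 averaged.

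The interaction of the log2 ratio of Scd1 to Scd2 was 0.06, with 0.39 without the 3 named tumours, 0.33 without those above 4 in proliferation markers and -0.28 to 0.92 on leaving out 1 code or tumour. Of 1907 alternative log2 fold changes of the 10 genes, all for sgSetd2 against sgNeo, 1802 kept their direction and their side of the threshold. Most of the 1907 came from fits that left out 1 code or tumour, and most are of genes without a call in the main fit. The settings with proliferation or AT2 markers were chosen after seeing the data. The fit of only the groups compared could not be run for the averaged contrast or the interaction. No paired analysis was possible because the codes of different groups share no number, and tumour numbers lie within codes. Depth limits Elovl6, which had a count of 0 in 14 of 36 tumours.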
